A study of Mus musculus with 23 samples.

Results

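The 9 chemokine genes Ccl6, Ccl9, Ccl3, Ccl4, Ccl12, Ccl2, Cxcl10, Cxcl16 and Cx3cl1 were followed in the hippocampus of mice with an Alzheimer App knock-in, loss of p16, both or neither. They were chosen by gene symbol as chemokines of microglia and neurons, and were 9 of the 37173 genes in the count table. Poly-A RNA was counted from both hippocampi of mice aged about 5 months, and the labels list 23 separate samples. The groups were APP NLGF P16 KO (homozygous for both alleles, n = 6), APP NLGF (homozygous knock-in, n = 5), P16 KO (homozygous knockout, n = 6) and WT (n = 6). The App allele is carried at the mouse App gene and holds familial Alzheimer mutations, so that amyloid deposits form without an App transgene. The labels used here do not give the sex of the mice, their litters, or the part of Cdkn2a that was removed.

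Library totals ran from 48577677 to 59486545 counts in APP NLGF P16 KO, from 40693561 to 56973131 in APP NLGF, from 45449180 to 61178839 in P16 KO and from 54595296 to 58715671 in WT. Of the 37173 genes, 19423 passed a filter on low counts and were tested in 1 edgeR model over all 23 libraries. Cdkn2a, the gene that encodes p16, gave 0 to 8 reads per library in APP NLGF P16 KO and 2 to 9 in APP NLGF. It gave 0 to 2 reads in P16 KO and 0 to 6 in WT. Levels are given as CPM, counts scaled to a library total of 1000000. By exact permutation of CPM between the libraries (two-sided), p was 0.580 for APP NLGF P16 KO against APP NLGF (n = 6 and 5) and 0.0563 for P16 KO against WT (n = 6 each), so the genotypes at Cdkn2a rest on the labels. App itself was read at 1465 to 1650 CPM in APP NLGF P16 KO, 1513 to 1626 CPM in APP NLGF, 1564 to 1718 CPM in P16 KO and 1591 to 1736 CPM in WT. By the distance measure of the study's design text, APP NLGF P16 KO 21 stood past the limit (12.4 against 11.07) and P16 KO 7 just under it (11.0). Without APP NLGF P16 KO 21, the same chemokine genes were called in both App knock-in comparisons described next. The hippocampal marker genes Zbtb20 and Neurod6 and the neuronal genes Snap25 and Syt1 were abundant in every group. Separate animals are not named beyond the sample numbers, so p-values measure the spread between these samples.

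Chemokines are small secreted proteins that bind G protein-coupled receptors and direct the movement of leukocytes and microglia. Most are named for the spacing of their first cysteines, as CC, CXC or CX3C chemokines. In the brain, microglia are a main source of CC chemokines, while Cx3cl1 (fractalkine) is made by neurons and is read by the receptor Cx3cr1 on microglia. Cx3cl1 and Cxcl16 are made as membrane proteins on a mucin-like stalk and are released by the proteases Adam10 and Adam17.

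The order of the 9 genes in WT hippocampus was set on CPM per kilobase of exon, which allows levels of different genes to be compared. Cx3cl1 stood first at 152 ± 5.28 CPM per kilobase (SD, n = 6). It was followed by Ccl6 at 1.02 ± 0.256, Ccl9 at 0.723 ± 0.144, Ccl12 at 0.500 ± 0.144 and Cxcl16 at 0.465 ± 0.112 CPM per kilobase. Cxcl10 at 0.178 ± 0.117, Ccl3 at 0.165 ± 0.0635, Ccl4 at 0.125 ± 0.0467 and Ccl2 at 0.0572 ± 0.0134 CPM per kilobase came last. Only Cx3cl1 was separate from the next gene in this order, and the ranges of all other neighbours over the 6 WT libraries overlapped. Spread within a genotype also differed between the genes. The coefficient of variation of CPM ran from 3.48% to 10.9% over the groups for Cx3cl1 and from 51.3% to 88.7% for Cxcl10. For Ccl6 it was 5.35% in APP NLGF P16 KO, 9.91% in APP NLGF, 26.1% in P16 KO and 25.0% in WT.

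**Figure D1:**
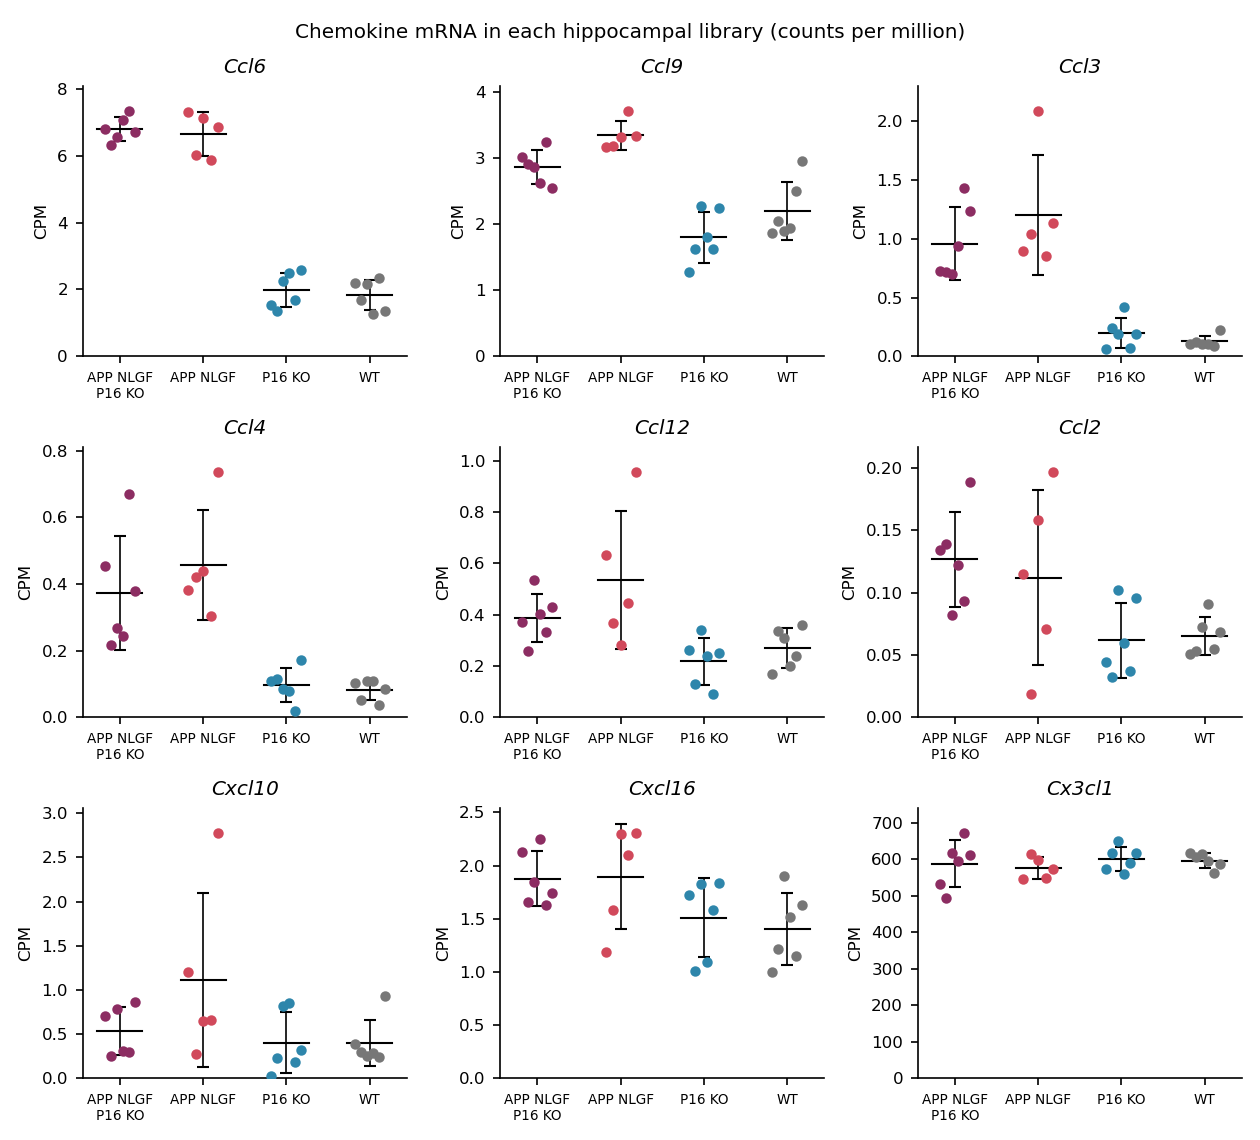
Each panel plots CPM of 1 chemokine gene on the vertical axis against genotype, with a point per library and the mean ± SD as lines (n = 6, 5, 6 and 6). For Ccl6, Ccl9, Ccl3 and Ccl4 the APP NLGF P16 KO libraries sit above those of P16 KO and the APP NLGF libraries above those of WT, and all 4 genotypes overlap for Cxcl10, Cxcl16 and Cx3cl1.

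The first question was what the App knock-in does to these genes where p16 is intact (APP NLGF against WT) and where it is not (APP NLGF P16 KO against P16 KO). Ccl6, Ccl3 and Ccl4 rose in both comparisons, and Ccl9 rose in APP NLGF P16 KO against P16 KO. In APP NLGF against WT, 3 of the 9 genes were called at an adjusted p under 0.05, where 0.319% of all genes tested were called and 0.304% were called higher. Against P16 KO, 4 of the 9 were called in APP NLGF P16 KO, where 0.247% of genes tested were called and 0.221% were called higher. Ccl6, Ccl9, Ccl3 and Ccl4 had every knock-in library above every library of its comparison group in both comparisons. Such separation was found for 1.16% of genes tested in APP NLGF against WT and for 0.33% in APP NLGF P16 KO against P16 KO. Ccl2 failed the filter and was not in this model. Ccl4 passed the filter only through the knock-in groups, since 0 of 6 P16 KO and 0 of 6 WT libraries reached its level of 0.181 CPM, and Ccl3 reached it in 4 P16 KO libraries and 1 WT library. Counts over the genes that passed are therefore no independent support.

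Ccl6, a CC chemokine of myeloid cells that acts on the receptor Ccr1, rose about 3.5-fold. Ccl6 (ENSMUSG00000018927) lies on chromosome 11 (GRCm38, 83587882 to 83593087, minus strand). APP NLGF libraries 13 to 17 held 7.31, 6.03, 7.14, 5.86 and 6.86 CPM of Ccl6, against a lowest, median and highest WT value of 1.27, 1.92 and 2.34 CPM. The lowest APP NLGF library thus had more than the highest WT library, and the difference was log2 1.84 ± 0.16 (SE, edgeR adjusted p = 9.21e-08, fold 3.57, 95% interval 2.83 to 4.51). The lowest, median and highest values in APP NLGF P16 KO were 6.33, 6.75 and 7.35 CPM, against 1.37, 1.96 and 2.58 CPM in P16 KO. The groups again did not overlap (log2 1.78 ± 0.16, edgeR adjusted p = 1.55e-07). Averaged over both comparisons, Ccl6 was higher by log2 1.81 ± 0.11 (edgeR adjusted p = 8.49e-11). In bulk tissue, a change in the number of cells of a type and a change in RNA per cell cannot be told apart, for Ccl6 and for every gene that follows.

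Ccl9, which also acts on Ccr1 and is the neighbour of Ccl6 on chromosome 11 (ENSMUSG00000019122, 83572919 to 83578636, minus strand), moved less. APP NLGF libraries held 3.17, 3.19, 3.32, 3.72 and 3.34 CPM of Ccl9, against 1.87, 1.99 and 2.95 CPM in WT (lowest, median and highest). The groups did not overlap, but the adjusted p of this comparison missed the threshold (log2 0.59 ± 0.14, edgeR adjusted p = 0.0737). It passed with DESeq2 (adjusted p = 0.00526), without WT 6 (0.0161) and without P16 KO 7 (0.0354), and ran up to 0.189 over 30 alternatives. APP NLGF P16 KO libraries held 2.55, 2.89 and 3.25 CPM of Ccl9, against 1.28, 1.71 and 2.27 CPM in P16 KO. This rise passed (log2 0.67 ± 0.14, edgeR adjusted p = 0.0300). The call was lost in a fit of both groups alone (adjusted p = 0.178), without P16 KO 7, 8, 10 or 11, and without APP NLGF P16 KO 18, 19, 20 or 22 (0.0568 to 0.0925). The average over both comparisons was log2 0.63 ± 0.10 (edgeR adjusted p = 4.28e-04), and it was called in all 29 alternatives run for it.

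Ccl6, Ccl9, Ccl3 and Ccl4 share a stretch of chromosome 11 of 91.8 kb (GRCm38, 83572919 to 83664683) that holds 6 annotated genes of the table. The other 2, E230016K23Rik and Rpl9-ps1, gave 42 and 15 reads over all 23 libraries and were not tested. E230016K23Rik lies on the strand opposite to Ccl6 and overlaps it. The library kit keeps strand, but whether counting used it is not given in the sources used here, so reads of overlapping genes cannot be told apart. Promoters of 3 of these 4 chemokines were in a RefSeq promoter table (GRCm38.p6). The 250 bases before each start are shown because these neighbouring genes had higher estimates in both knock-in comparisons. Of these estimates, that of Ccl9 in APP NLGF against WT missed the threshold. Capitals mark matches to an NF-kB motif (GGG and TTCC with 2 or 3 bases of any kind between them), to an interferon response motif (GAAA and GAAA with 2 bases of any kind between them) or to an ETS motif (GGAAGT), each searched on both strands. The windows are chr11:83593088-83593337 for Ccl6, chr11:83578637-83578886 for Ccl9 and chr11:83649379-83649628 for Ccl3, all on the minus strand.
Ccl6: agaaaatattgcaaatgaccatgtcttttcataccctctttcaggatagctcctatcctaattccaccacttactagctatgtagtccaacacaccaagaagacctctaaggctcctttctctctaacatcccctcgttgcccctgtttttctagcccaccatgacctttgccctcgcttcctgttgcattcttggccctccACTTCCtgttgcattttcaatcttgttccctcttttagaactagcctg
Ccl9: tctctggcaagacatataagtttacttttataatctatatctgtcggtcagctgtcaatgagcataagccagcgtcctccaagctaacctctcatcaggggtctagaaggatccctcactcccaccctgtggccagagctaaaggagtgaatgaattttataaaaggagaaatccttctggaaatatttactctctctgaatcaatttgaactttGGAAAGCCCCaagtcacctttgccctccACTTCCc
Ccl3: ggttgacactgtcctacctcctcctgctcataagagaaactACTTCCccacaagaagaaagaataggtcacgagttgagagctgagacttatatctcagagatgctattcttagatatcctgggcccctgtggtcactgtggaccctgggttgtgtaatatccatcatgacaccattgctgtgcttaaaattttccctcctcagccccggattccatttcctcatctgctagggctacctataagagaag
Within 250 bases before and 50 after the start, Ccl9 held an NF-kB match that begins 35 bases before the start. ETS matches began 48 bases before the start of Ccl6, 7 bases before that of Ccl9 and 209 bases before that of Ccl3. Among 32851 promoter windows of that length, 9.74% held the NF-kB motif, 23.8% the ETS motif and 3.44% the interferon response motif. The Ccl6 and Ccl9 windows could be aligned over 74 positions, of which 59 were identical (79.7%), from 59 bases before to 14 bases after the start of Ccl6. Such matches describe letters and not binding.

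Ccl3 and Ccl4, the macrophage inflammatory proteins that attract monocytes and lymphocytes, were scarce without the knock-in and rose several-fold with it. Ccl3 (ENSMUSG00000000982) is at 83647844 to 83649355 on the minus strand of chromosome 11, and Ccl4 (ENSMUSG00000018930) at 83662584 to 83664683 on the plus strand. APP NLGF libraries held 0.899, 1.04, 2.09, 0.855 and 1.13 CPM of Ccl3, against 0.0916, 0.109 and 0.223 CPM in WT (lowest, median and highest). The groups were separate (log2 3.21 ± 0.36, edgeR adjusted p = 7.05e-06, fold 9.27, 95% interval 5.55 to 15.5), and the WT values rest on 5 to 13 reads per library. APP NLGF P16 KO libraries held 0.700, 0.832 and 1.43 CPM of Ccl3, against 0.0660, 0.189 and 0.416 CPM in P16 KO. This rise was log2 2.27 ± 0.33 (edgeR adjusted p = 8.26e-04, fold 4.81, 95% interval 2.98 to 7.75). The change of Ccl3 was called in all 30 alternatives of each comparison.

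Ccl4 showed the same separation. APP NLGF libraries held 0.383, 0.421, 0.439, 0.303 and 0.737 CPM of Ccl4, against 0.0366, 0.0940 and 0.109 CPM in WT. Every knock-in library was higher than every WT library (log2 2.41 ± 0.38, edgeR adjusted p = 0.00133, fold 5.30, 95% interval 3.08 to 9.14). APP NLGF P16 KO libraries held 0.218, 0.323 and 0.669 CPM of Ccl4, against 0.0184, 0.0976 and 0.172 CPM in P16 KO. This was log2 1.93 ± 0.37 (edgeR adjusted p = 0.0142), and the call was lost in a fit of both groups alone (adjusted p = 0.134).

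**Figure D2:**
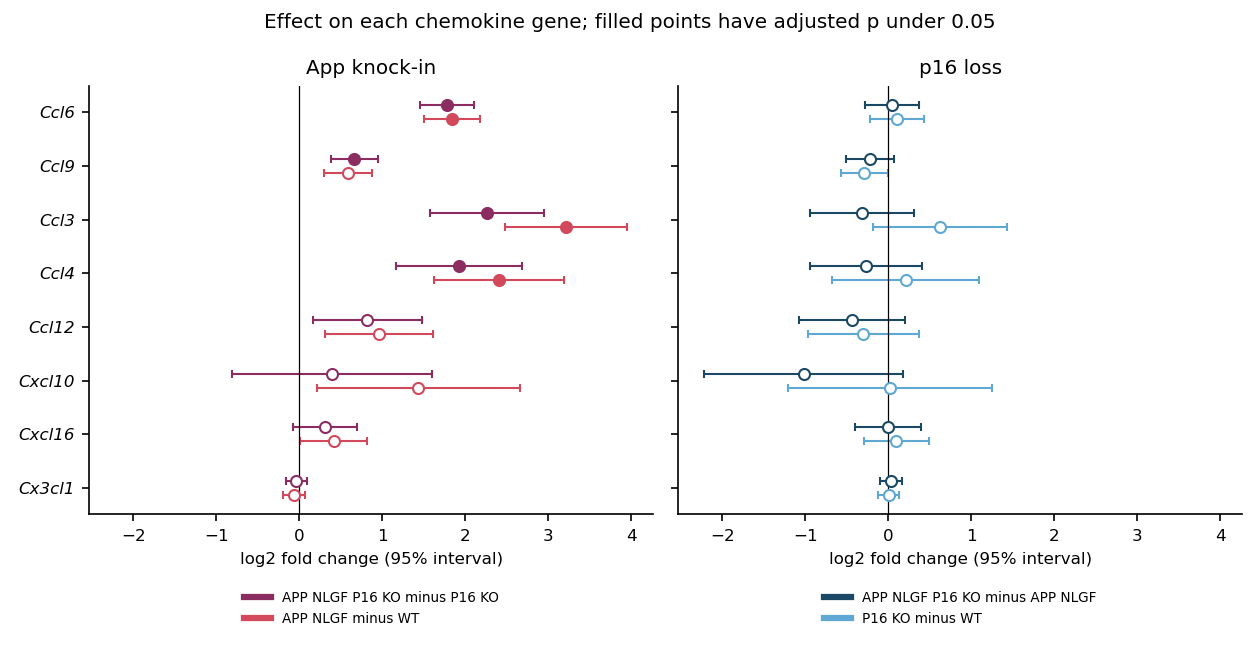
The horizontal axis gives the log2 fold change with its 95% interval for the 8 genes tested, in both App knock-in comparisons on the left and in both p16 comparisons on the right, with filled points at an adjusted p under 0.05. Points at the right of 0 with intervals clear of it are Ccl6, Ccl9, Ccl3, Ccl4 and Ccl12 in both knock-in comparisons, and no point of the p16 comparisons is filled.

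Ccl12 and Ccl2, the monocyte chemoattractants that act on Ccr2, lie within a stretch of 67.8 kb on the plus strand of chromosome 11. Ccl2 (ENSMUSG00000035385) is at 82035571 to 82037453, where Gm17268 overlaps it on the other strand, and Ccl12 (ENSMUSG00000035352) at 82101845 to 82103400. APP NLGF libraries held 0.631, 0.366, 0.281, 0.445 and 0.958 CPM of Ccl12, against 0.170, 0.273 and 0.361 CPM in WT. The groups overlapped, and the change missed the threshold (log2 0.96 ± 0.32, edgeR adjusted p = 0.339). APP NLGF P16 KO libraries held 0.257, 0.385 and 0.535 CPM, against 0.0922, 0.243 and 0.341 CPM in P16 KO (log2 0.82 ± 0.32, edgeR adjusted p = 0.489). The average over both comparisons was log2 0.89 ± 0.22 with an adjusted p of 0.0616 by edgeR. It passed with DESeq2 (0.0206), without P16 KO 9 (0.0375) and without APP NLGF 15 (0.0353), and the range over 29 alternatives was 0.0206 to 0.138.

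Ccl2 gave 1 to 11 reads per library, and its CPM were compared by exact permutation (two-sided). APP NLGF libraries held 0.115, 0.0183, 0.158, 0.0712 and 0.197 CPM of Ccl2, against 0.0511, 0.0618 and 0.0905 CPM in WT. They overlapped, and the exact permutation p was 0.156 (means 0.112 ± 0.0702 CPM in APP NLGF and 0.0651 ± 0.0152 CPM in WT, SD, n = 5 and 6). Without APP NLGF 14, the lowest library, the exact permutation p was 0.0143, and without APP NLGF 17, the highest, it was 0.352. APP NLGF P16 KO libraries held 0.0823, 0.128 and 0.189 CPM, against 0.0327, 0.0517 and 0.102 CPM in P16 KO. Here the means were 0.127 ± 0.0381 CPM in APP NLGF P16 KO and 0.0618 ± 0.0303 CPM in P16 KO (SD, n = 6 each), and the exact permutation p of 0.0130 became 0.0519 after Benjamini-Hochberg adjustment over 4 comparisons. In an edgeR fit with no count filter, Ccl2 was at log2 0.73 ± 0.51 in APP NLGF against WT (adjusted p = 0.770) and at 1.00 ± 0.49 in APP NLGF P16 KO against P16 KO (adjusted p = 0.688). Between Ccl2 and Ccl12 lie Ccl7 and Ccl11, which gave 66 and 65 reads over the 23 libraries and were not tested.

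Cxcl10, an interferon-induced ligand of Cxcr3 that attracts T cells, varied most between mice of 1 genotype. Its promoter is shown because Cxcl10 varied with interferon-stimulated genes across libraries. The window is chr5:92348890-92349139 on the minus strand (GRCm38.p6, RefSeq), the 250 bases before the start, with the same motifs in capitals.
Cxcl10: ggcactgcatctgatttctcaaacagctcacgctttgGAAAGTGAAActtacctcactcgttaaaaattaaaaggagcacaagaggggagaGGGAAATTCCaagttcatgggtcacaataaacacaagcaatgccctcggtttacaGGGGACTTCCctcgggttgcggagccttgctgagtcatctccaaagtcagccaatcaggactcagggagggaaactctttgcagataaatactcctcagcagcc
The interferon response match GAAAGTGAAA begins 213 bases before the start. NF-kB matches begin 159 bases (GGGAAATTCC) and 104 bases (GGGGACTTCC) before it, and the second holds a shorter NF-kB match and an ETS match within it. The relation of Ccl12 with the same genes, given below, missed the threshold after adjustment. Ccl12 had no match to the interferon response or NF-kB motif in its window. Its ETS matches begin 228 and 14 bases before the start. APP NLGF libraries 13 to 17 held 1.20, 0.275, 0.649, 0.659 and 2.78 CPM of Cxcl10, against 0.238, 0.295 and 0.928 CPM in WT. APP NLGF 17 was highest and APP NLGF 14 lay among the WT libraries. The change was log2 1.43 ± 0.59 (edgeR adjusted p = 0.513), and it was 0.78 without APP NLGF 17 and 1.87 without WT 6. APP NLGF P16 KO libraries held 0.257, 0.510 and 0.861 CPM, against 0.0220, 0.277 and 0.852 CPM in P16 KO, and these ranges nearly coincided at the top (log2 0.39 ± 0.58, edgeR adjusted p = 0.897). Cxcl10 (ENSMUSG00000034855, GRCm38 chromosome 5, 92346638 to 92348889) overlaps Art3 on the other strand.

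The summed CPM of 24 interferon-stimulated genes such as Cmpk2 and Ifit2 was 93.2 to 105.9 in APP NLGF P16 KO, 98.0 to 180.6 in APP NLGF, 78.5 to 94.5 in P16 KO and 88.6 to 117.0 in WT. APP NLGF 17 had the sum of 180.6, against 98.0 to 117.0 in the other 4 of its group. Over all libraries Cmpk2 made up 27.0% of the sum and Ifit2 9.61%. In APP NLGF against WT, Cmpk2 and Ifit2 were at log2 -0.03 ± 0.09 and -0.05 ± 0.11, while 22 of the 24 genes had positive estimates. In the model 0 of these 24 genes were called in APP NLGF against WT, where the median log2 change was 0.46, against -0.0010 over all genes tested. At an unadjusted p under 0.05 there were 13, as were 8.54% of all genes tested, and DESeq2 called 1. Against P16 KO, 0 were called in APP NLGF P16 KO (median 0.20, 4 at an unadjusted p under 0.05, where 7.89% of all genes were, and 0 by DESeq2). For the average of both comparisons, Ifit3b alone was called (log2 0.60 ± 0.14, edgeR adjusted p = 0.0417).

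After each genotype's mean was removed from log2 CPM, Cxcl10 and the interferon sum varied together over the 23 libraries. Pearson's r was 0.646 (p = 4.8e-04, permutation within genotypes, 0.0115 after adjustment over 24 relations) and Spearman's rho was 0.625 (p = 0.00168, adjusted 0.0403). Without APP NLGF 17 and WT 6, the libraries farthest from the median sum, r was 0.531. For Ccl12, r was 0.628 (permutation p = 0.00497, adjusted 0.0596), rho was 0.538 (adjusted 0.182), and r was 0.465 without those libraries. The other 22 relations, of 8 chemokine genes with the interferon, plaque-associated microglia and microglia sums, had adjusted p of 0.303 or more for r. The plaque-associated sum was mostly Fth1 (43.7%), Apoe (30.9%) and Ctsb (13.7%), none of which was called in either knock-in comparison, and relations with scarcer genes such as Cst7 alone were not tested.

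**Figure D3:**
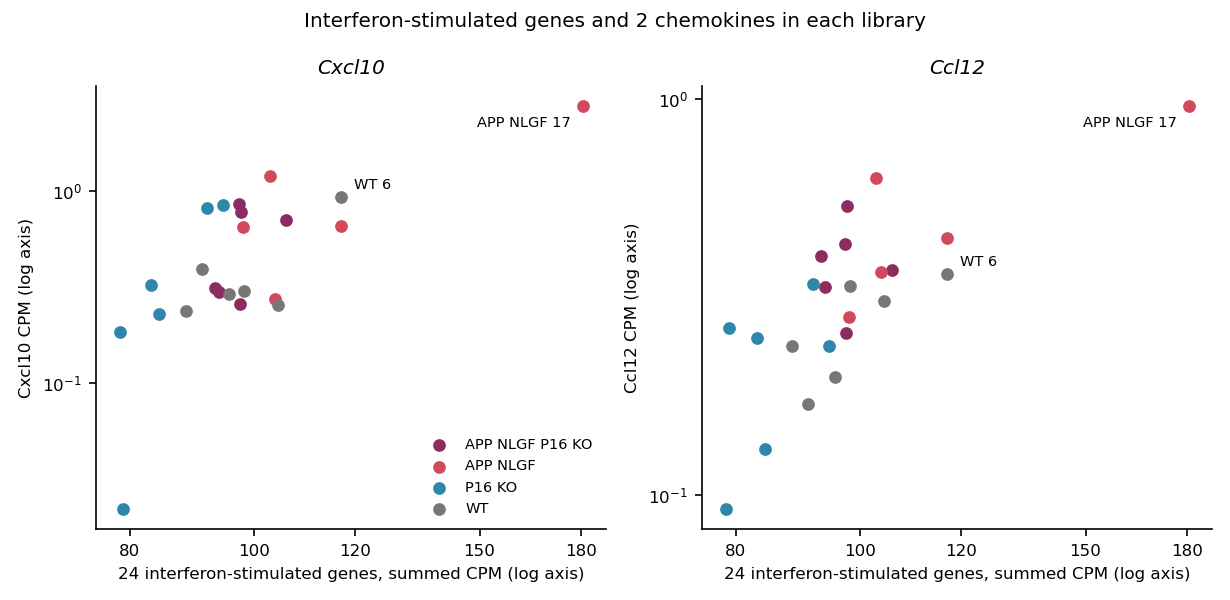
Each point is 1 library, with the summed CPM of 24 interferon-stimulated genes on the horizontal log axis and CPM of Cxcl10 (left) or Ccl12 (right) on the vertical log axis. APP NLGF 17 stands at the upper right of both panels, with a sum of 180.6 CPM, 2.78 CPM of Cxcl10 and 0.958 CPM of Ccl12.

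The membrane-bound chemokines were not called in any comparison. APP NLGF libraries held 1.19, 1.58, 2.3, 2.10 and 2.31 CPM of Cxcl16, the ligand of Cxcr6, against 1.00, 1.37 and 1.90 CPM in WT. The groups overlapped (log2 0.42 ± 0.20, edgeR adjusted p = 0.577, fold 1.33, 95% interval 1.01 to 1.76), as they did in APP NLGF P16 KO with 1.63, 1.80 and 2.25 CPM, against 1.01, 1.65 and 1.84 CPM in P16 KO (log2 0.31 ± 0.19, edgeR adjusted p = 0.716, 95% interval 0.952-fold to 1.62-fold). Cxcl16 (ENSMUSG00000018920, GRCm38 chromosome 11, 70453983 to 70459984, minus strand) overlaps Zmynd15 on the other strand.

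Cx3cl1, the neuronal ligand of Cx3cr1 (ENSMUSG00000031778, GRCm38 chromosome 8, 94772009 to 94782427, plus strand), was at 547 to 614 CPM in APP NLGF and 561 to 616 CPM in WT, with overlapping ranges. Its change was log2 -0.06 ± 0.06 with a 95% interval of -0.19 to 0.07 (edgeR adjusted p = 0.851). Cx3cl1 in APP NLGF P16 KO was at 495 to 673 CPM, against 559 to 650 CPM in P16 KO (log2 -0.03 ± 0.06, 95% interval -0.16 to 0.09, edgeR adjusted p = 0.917). Over both comparisons these intervals span 0.874-fold to 1.07-fold. Each library held at least 23358 reads of Cx3cl1, so counting depth set little of this width.

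**Figure D4:**
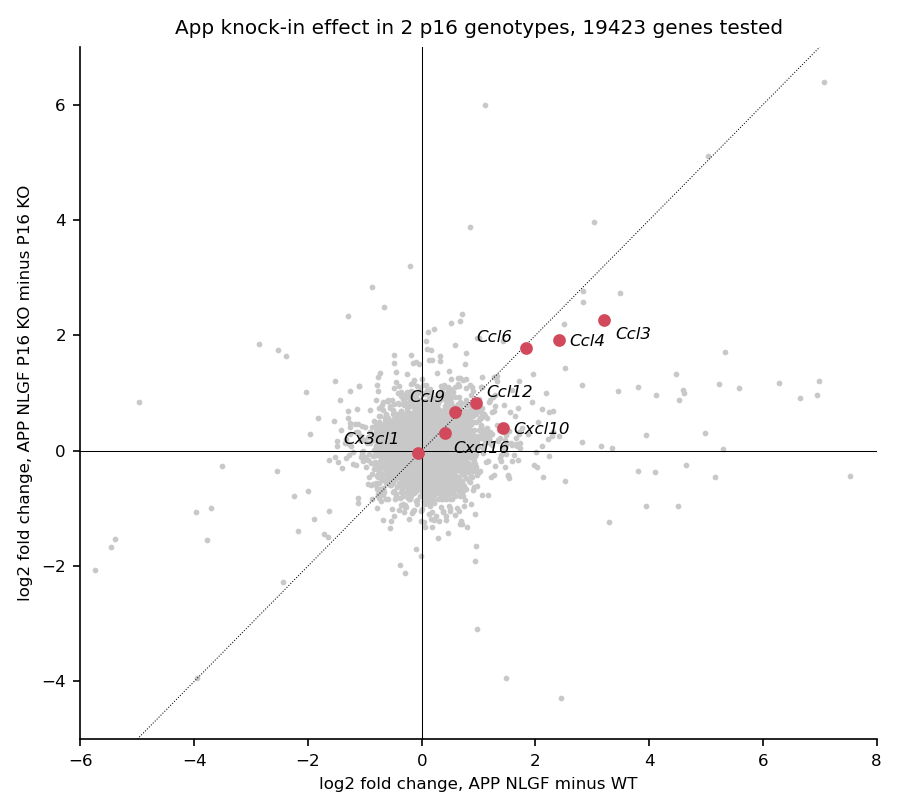
Each grey point is 1 of 19423 genes tested, with its log2 fold change in APP NLGF against WT on the horizontal axis and in APP NLGF P16 KO against P16 KO on the vertical axis. Red points are the 8 chemokine genes tested, of which Ccl6 lies near the dotted line of equal change and Ccl3 lies below it (3.21 and 2.27).

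The second question was whether loss of p16 changes these genes. With APP NLGF as the comparison group, 0 of the 9 were called by edgeR in APP NLGF P16 KO, 0 reached an unadjusted p under 0.05 (23.5% of all genes did) and 0 were called by DESeq2, where edgeR called 0.0309% of genes tested (6 genes, 2 without APP NLGF 16 and 4156 without APP NLGF P16 KO 23). The largest estimate was that of Cxcl10 at log2 -1.02 ± 0.58 (edgeR adjusted p = 0.284). It was -0.37 without APP NLGF 17 and ran from -1.28 to -0.37 over 30 alternatives. Of the 24 interferon-stimulated genes, 0 were called by edgeR or DESeq2 in that comparison, 15 had an unadjusted p under 0.05, and the median log2 change was -0.52, against 0.01 over all genes tested. In P16 KO against WT, 0 of the 24 were called by edgeR and 1 by DESeq2 (Ifih1), 7 had an unadjusted p under 0.05, and the median was -0.34, against -0.0051 over all genes. In P16 KO against WT, 0 of the 9 were called by edgeR and 0 by DESeq2, where edgeR called 0.309% of genes tested (60 genes, 7 without P16 KO 9 and 239 without P16 KO 8). Ccl9 alone had an unadjusted p under 0.05, which 15.8% of all genes had. Ccl9 was at log2 -0.22 ± 0.14 in APP NLGF P16 KO against APP NLGF (edgeR adjusted p = 0.344) and at -0.29 ± 0.14 in P16 KO against WT (edgeR adjusted p = 0.304). Ccl6 was at log2 0.04 ± 0.16 with a 95% interval of -0.28 to 0.37 in APP NLGF P16 KO against APP NLGF, and at 0.10 ± 0.16 with an interval of -0.22 to 0.43 in P16 KO against WT. Ccl3 was at log2 -0.32 ± 0.30 and 0.63 ± 0.39 in these comparisons. Its P16 KO libraries ran from 0.0660 to 0.416 CPM and its WT libraries from 0.0916 to 0.223 CPM. Ccl2, outside the model, had an exact permutation p of 0.660 in APP NLGF P16 KO against APP NLGF (n = 6 and 5) and of 0.814 in P16 KO against WT (n = 6 each).

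The interaction asks whether the effect of the knock-in differs between p16 genotypes, and 0 of the 9 were called, as were 0% of genes tested. No chemokine gene reached an unadjusted p under 0.05 (5.26% of all genes did), and DESeq2 called 0 of the 9. The estimate of Ccl3 was log2 -0.95 ± 0.50 (edgeR adjusted p = 0.897), and it ran from -1.19 to -0.61 over 29 alternatives. It was -0.61 without P16 KO 10 and -0.65 without APP NLGF 15. For Ccl6 it was -0.06 ± 0.22 with a 95% interval of -0.52 to 0.40, and for Cxcl10 -1.04 ± 0.83. The effect sizes of the knock-in with and without p16 were therefore not shown to differ for any of the 8 genes tested, and the 95% intervals of Ccl3, Ccl4, Ccl12 and Cxcl10 reach below -1 on the log2 scale.

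Receptors of these and of other chemokines were measured in the same libraries. Of 24 chemokine receptor genes 13 were tested, and 0 were called in either knock-in comparison by edgeR (3 at an unadjusted p under 0.05 in each, where 8.54% and 7.89% of all genes were). DESeq2 called Ackr2, a decoy receptor of CC chemokines, in APP NLGF against WT and 0 in the other comparison. Ackr2 was lower with the knock-in, at 1.38 ± 0.275 CPM in APP NLGF and 2.19 ± 0.409 CPM in WT (SD, n = 5 and 6). The change by edgeR was log2 -0.68 ± 0.16 (edgeR adjusted p = 0.0762). The median log2 change of the receptors averaged over both comparisons was 0.17, against -0.00045 over all genes tested. Cx3cr1, the receptor of Cx3cl1, was at 54.1 ± 4.94 CPM in APP NLGF and 44.7 ± 2.29 CPM in WT (SD, n = 5 and 6, log2 0.26 ± 0.09, edgeR adjusted p = 0.361). Ccr1 averaged 0.162 to 0.255 CPM and Ccr2 0.234 to 0.340 CPM over the genotypes, and neither was called. Cxcr3, the receptor of Cxcl10, gave 16 to 32 reads per genotype and Cxcr6 gave 15 to 24, and both were under the filter.

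Of 27 further chemokine genes, 13 were tested and 0 were called by edgeR or DESeq2 in either knock-in comparison. The median log2 change averaged over both was 0.06, against -0.00045 over all genes tested. The most abundant were Cxcl14, at 103 ± 9.15 CPM in APP NLGF and 92.0 ± 5.93 CPM in WT (edgeR adjusted p = 0.606), and Cxcl12, at 68.3 ± 3.90 CPM in APP NLGF and 64.6 ± 5.63 CPM in WT (edgeR adjusted p = 0.806). Neither Adam10 nor Adam17, the proteases that shed Cx3cl1 and Cxcl16, was called. Adam10 was at log2 -0.11 ± 0.06 and 0.0025 ± 0.057, and Adam17 at -0.0033 ± 0.053 and -0.04 ± 0.05, in APP NLGF against WT and in APP NLGF P16 KO against P16 KO. All 5 genes of that list, which adds Timp3 and the rhomboid genes Rhbdf1 and Rhbdf2, were tested and 0 were called by edgeR or DESeq2.

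**Figure D5:**
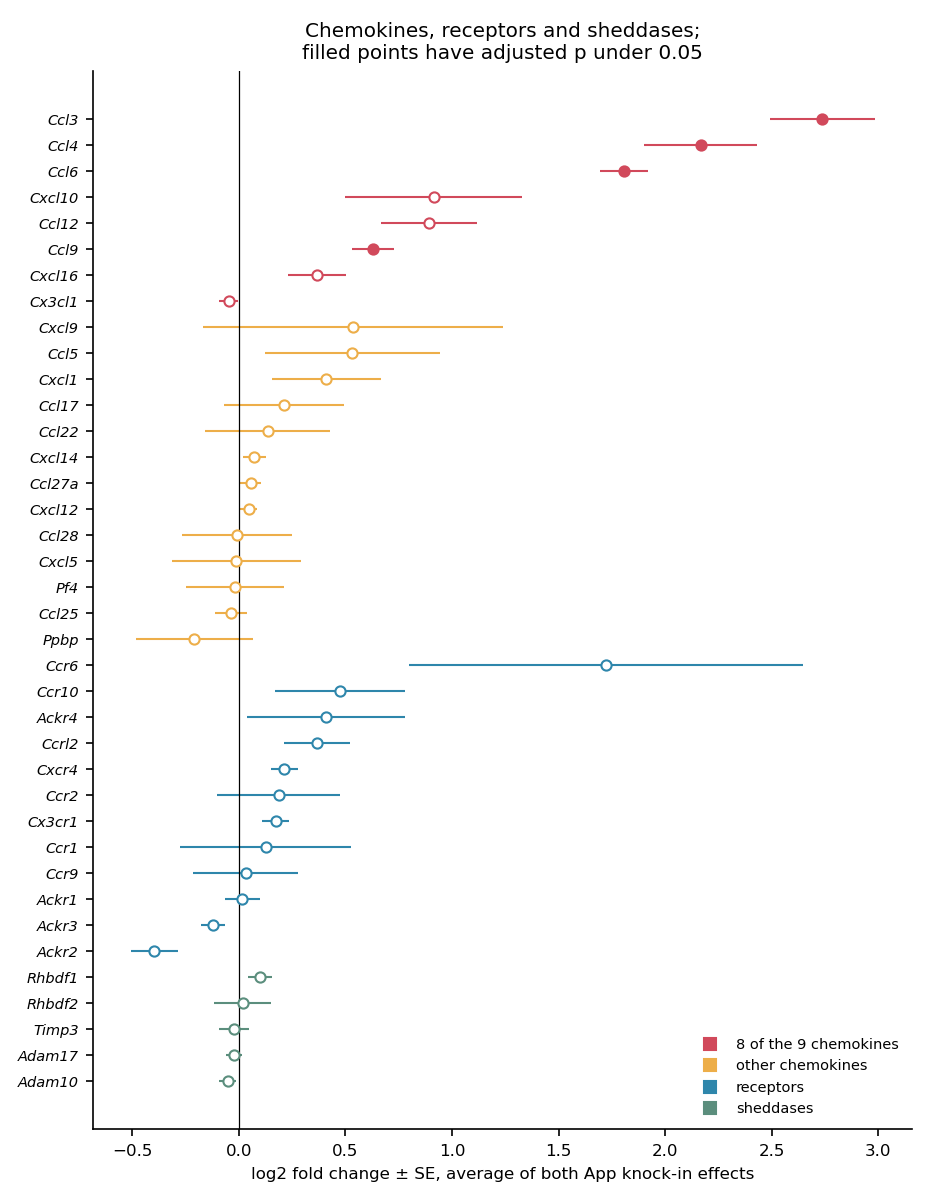
The horizontal axis gives the log2 fold change ± SE averaged over both App knock-in comparisons, with filled points at an adjusted p under 0.05. Shown are genes tested among chemokines, chemokine receptors and the list labelled sheddases (Adam10, Adam17, Timp3, Rhbdf1 and Rhbdf2). A receptor not reported here was left out of the plot. Ccl3, Ccl4, Ccl6 and Ccl9 are the filled points.

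Signals that induce chemokines (Toll-like receptors, cytokine receptors, NF-kB and interferon regulatory factors) were followed in 29 tested genes. By edgeR 1 rose in APP NLGF against WT, where 0.319% of all genes tested were called. In APP NLGF P16 KO against P16 KO 1 fell, where 0.247% of all genes were called. DESeq2 called Irf8 and Tnfrsf1a in the first comparison and Il1r1 in the second. Irf8, a transcription factor of microglia, was at 8.37 ± 1.19 CPM in APP NLGF and 4.84 ± 0.282 CPM in WT (log2 0.78 ± 0.11, edgeR adjusted p = 4.93e-04). In APP NLGF P16 KO against P16 KO, Irf8 was at log2 0.37 ± 0.11 (edgeR adjusted p = 0.248). Il1r1, the interleukin-1 receptor gene, was at 16.1 ± 2.38 CPM in APP NLGF P16 KO and 25.3 ± 7.63 CPM in P16 KO (log2 -0.65 ± 0.13, edgeR adjusted p = 0.0372). In APP NLGF it was at 18.1 ± 2.39 CPM and in WT at 18.4 ± 0.953 CPM, so P16 KO was the highest and most variable of the groups (P16 KO against WT log2 0.45 ± 0.13, edgeR adjusted p = 0.109). By DESeq2, Il1r1 and Tnfrsf1a were called in P16 KO against WT. Irf8 and Tlr2 were the genes of this list called by edgeR in the average of both knock-in comparisons (Tlr2 log2 0.55 ± 0.13, edgeR adjusted p = 0.0411). DESeq2 called 4 in that average, adding Il1r1 and Tnfrsf1a. Averaged over both knock-in comparisons, 4 of the 9 chemokine genes were called by edgeR, against 0.793% of all genes tested.

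Some genes of microglia rose in the same comparisons. Of 20 genes of plaque-associated microglia, 8 rose in APP NLGF against WT and 7 in APP NLGF P16 KO against P16 KO, and 0 fell. Of all genes tested, 0.304% and 0.221% were called higher in these comparisons. Cst7, a cystatin, was at log2 5.04 ± 0.33 and 5.12 ± 0.34 in these comparisons, and the beta-glucan receptor gene Clec7a at 2.83 ± 0.24 and 2.77 ± 0.23. Trem2 and its adaptor Tyrobp rose by log2 0.85 to 1.01. Of 12 general microglial markers, 3 rose in APP NLGF against WT, Cd68 and Olfml3 among them, and 2 in APP NLGF P16 KO against P16 KO, Cd68 among them. All 12 had positive estimates, with medians of log2 0.30 and 0.25. Their summed CPM was 469 to 518 in APP NLGF P16 KO, 450 to 516 in APP NLGF, 389 to 416 in P16 KO and 357 to 415 in WT, with each of the 12 detected in every group. The part of the microglial markers in the chemokine changes was not tested.

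Markers of other cells that make chemokines or are attracted by them were also summed. The 6 markers of border macrophages such as Mrc1 gave 7.35 to 10.5 CPM in APP NLGF P16 KO, 6.27 to 13.8 in APP NLGF, 5.55 to 9.27 in P16 KO and 5.73 to 12.6 in WT, and 0 were called. The 8 markers of monocytes and neutrophils gave 0.413 to 2.62 CPM, and the 8 markers of T and NK cells 0.147 to 1.12 CPM over all 23 libraries. Of these, Ly6g had no read in WT. The sums of the 8 neuronal markers overlapped in all 4 genotypes, and 0 were called by edgeR or DESeq2 in the knock-in comparisons (1 at an unadjusted p under 0.05 in each). Gfap of astrocytes rose by log2 0.51 ± 0.09 in APP NLGF against WT and 0.53 ± 0.09 in APP NLGF P16 KO against P16 KO. It was the only 1 of 5 astrocyte markers called in either comparison, and the median log2 change of the 5 was 0.07 and 0.05.

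The 2 genes whose log2 CPM varied most like each chemokine, once genotype means were removed, were in no case chemokines. They were picked as the highest of 15441 correlations, so a high r was selected for, and none was tested. Genes with Gm numbers, Rik names or accession-type names were left out of this ranking. Over 23 libraries and 15441 genes, Cx3cl1 was most like Tmem132a (r = 0.897) and Car11 (r = 0.877), values read from the same libraries. Ccl12 was most like the interferon-stimulated genes Isg15 (r = 0.750) and Oasl2 (r = 0.738), and Cxcl10 like Kcnmb1 (r = 0.755) and Mx2 (r = 0.753), of which Mx2 is interferon-stimulated. Ccl4 was most like Fut4 (r = 0.749) and the leukocyte integrin gene Itgb2 (r = 0.746), and Ccl3 like Prr15 (r = 0.814) and Spef1 (r = 0.766). Ccl6 was most like Snord104 and Rps6kl1 (r = 0.711 and 0.677), Ccl9 like Ska3 and Coq8b (0.734 and 0.706), and Cxcl16 like Adh1 and Efcab11 (0.788 and 0.738). Among the 8 chemokines tested the highest r was 0.506, between Ccl12 and Cxcl10, and Ccl6 and Ccl9 had r = 0.296.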

How the data were processed

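Poly-A RNA was read as 50-base single ends from stranded libraries made of 350 ng of RNA with 12 PCR cycles, per the labels' protocols. The submitters' processing notes name cutadapt 4.2 for trimming, Bowtie2 2.3.5 for removal of ribosomal reads and STAR 2.7.10b for alignment. Deposited were the authors' unnormalised counts of uniquely aligned reads assigned unambiguously to 1 gene of Ensembl release 102 on GRCm38, per the labels' design text. Reads shared by near-identical genes were therefore lost. The labels also name the build mm39. Positions are given on GRCm38, since 36795 of 37060 genes shared with GENCODE M21 matched it in both coordinates. DESeq2 1.45.3 is named in the submitters' processing notes, and its output was not used here.

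Groups were taken from the genotype labels. Genes with at least 10 reads at the median depth (0.181 CPM) in about as many libraries as the smallest genotype were kept by filterByExpr. The quasi-likelihood test of edgeR 4.0.16 (R 4.3.3) was fitted with TMM scaling and robust dispersion in 1 model of 4 genotypes. It was two-sided, with Benjamini-Hochberg adjustment over 19423 genes, and 0.05 was the threshold. The common dispersion was 0.0249. CPM was computed on the sum of all deposited counts of a library. Ccl2, under the filter, was compared by exact permutation, with 462 or 924 splits and a smallest possible p of 0.00216. Relations used 100000 permutations of libraries within genotypes. Levels per kilobase used the union of exons in GENCODE M21. The procedure was tested on simulated data. Total counts ran from 40693561 to 61178839 per library, with a median of 55138908. With no molecular identifiers named in the labels, depth covers counting error only. No pair of replicates agreed within sampling noise.

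The 9 genes, the lists and the tests were chosen with earlier results of these data known. The rule for named genes took all 9 chemokines, up to 4 called genes of each list by smallest p or the 2 most abundant where none was called, the members' receptors, Adam10 and Adam17, and the 2 genes most like each chemokine. Ackr2, Apoe, Ccl7, Ccl11, Ctsb, Fth1, Ifih1, Ifit3b, Ly6g, Rhbdf1, Rhbdf2, Tlr2 and Tnfrsf1a were named after their values were seen. A receptor and a marker taken by the rule are not reported here. Alternatives were DESeq2 1.42.0, RLE size factors, 2 other count filters, no robust dispersion, a sex score from Xist, fits of the compared groups alone and omission of each library.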

Additional observations from a re-analysis of the deposited data

Results flagged for a closer look

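In 3 of 36 groups of samples tested, 1 library stood apart from the rest of its genotype by Dixon's test, which chance alone does in about 1 of 20 groups. APP NLGF 15 held 2.09 CPM of Ccl3, against 1.13 CPM in the next library of its group. WT 6 held 0.223 CPM of Ccl3, against 0.124 CPM in the next, and 0.928 CPM of Cxcl10, against 0.392 CPM in the next. Ccl3 stayed called in both App knock-in comparisons without either library.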

How the results depend on the processing

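Ccl6 and Ccl3 were called in both App knock-in comparisons, and Ccl4 in APP NLGF against WT, under all 30 alternatives. The calls of Ccl9, of Ccl12 in the average, and of Ccl4 in APP NLGF P16 KO against P16 KO changed under some alternatives, whose values stand beside those genes above. The cause of each change was not tested. In APP NLGF P16 KO against P16 KO, 2 of the 9 chemokine genes were called when only the compared groups were fitted, a fit with fewer libraries.

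With DESeq2, 153 genes were called in APP NLGF against WT, 101 in APP NLGF P16 KO against P16 KO, 676 in APP NLGF P16 KO against APP NLGF, 469 in P16 KO against WT, 285 in the average of both knock-in effects and 1 in the interaction. With the compared groups alone, 19 were called in APP NLGF P16 KO against P16 KO, 0 in APP NLGF P16 KO against APP NLGF and 356 in P16 KO against WT. With no count filter 17 were called in APP NLGF P16 KO against APP NLGF. Without 1 library at a time, calls ran from 29 to 61 in APP NLGF P16 KO against P16 KO, from 2 to 4156 in APP NLGF P16 KO against APP NLGF and from 7 to 239 in P16 KO against WT. These counts moved by over 1.5 times in 3, 8 and 13 of 23 omissions in the order given.

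Estimates near 0 changed sign when 1 library was left out. Against APP NLGF, the log2 estimates of APP NLGF P16 KO ran from -0.008 to 0.0713 for Ccl6, from -0.1418 to 0.0777 for Cxcl16 and from -0.0089 to 0.0807 for Cx3cl1. In P16 KO against WT they ran from -0.0273 to 0.425 for Ccl4, from -0.3195 to 0.45 for Cxcl10 and from -0.0165 to 0.025 for Cx3cl1. In APP NLGF P16 KO against P16 KO, Cx3cl1 ran from -0.0781 to 0.0116. In the interaction they ran from -0.15 to 0.0321 for Ccl6, from -0.0315 to 0.1487 for Ccl9, from -0.3045 to 0.1604 for Ccl12 and from -0.0146 to 0.0748 for Cx3cl1. The CPM difference of Ccl2 ran from -0.0085 to 0.036 in APP NLGF P16 KO against APP NLGF and from -0.0114 to 0.0025 in P16 KO against WT. In APP NLGF against WT the difference of Ccl2 kept its sign, from 0.0254 to 0.07 CPM.

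No paired analysis was possible because the sample numbers run from 1 to 23 and are never shared between genotypes. Depth limits Ccl2, Ccl4 and Ccl3, which gave 2 to 13 reads in the WT libraries.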
